A study of Mus musculus with 148 samples.

Results

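Arg1, Arg2, Nos2 and Slc7a2, the genes of arginine breakdown and nitric oxide production, were taken by name from the deposited counts of lung and tumor immune cells, and all 4 were present among the 52542 genes. UMIs (counts of distinct mRNA molecules) were summed per mouse, tissue and deposited subpopulation label in every sum with 10 or more cells and expressed as CPM (UMIs of the gene per 1000000 UMIs of the sum). The single-cell libraries came from 63 samples of 27 mice and held 23425 annotated immune cells, of which 12071 were myeloid: 6308 monocytes, 1791 macrophages and 3972 neutrophils. The mice were female PA-GFP animals (strain label C57/b6 PA-GFP, whose cells become fluorescent after light exposure), and those with tumors had received EO771-tdTomato breast cancer cells, an established C57BL/6 mammary carcinoma line, in Matrigel in the right inguinal mammary gland at 8 weeks of age. Normal lungs came from 3 mice without tumor, Pre-MET lungs from 3 mice before the primary tumor was resected, and Primary samples were 4 tumors, 3 of them from the Pre-MET mice. In the mice of the relapse-free, distal and metastasis samples the tumor was resected 3 weeks after injection. Relapse-free lungs (6) and distal normal tissue (DN, 14) were checked for lack of tdTomato, DN being lung tissue away from the nodules in mice with metastases. MET samples (13), called metastases or whole metastases here, were lung tissue containing metastatic lesions, sorted without photoactivation. MET Core (13) and MET Invasive margin (7) were zones marked by photoactivation in lung sections before sorting. All cells were sorted as CD45+, or as photoactivated cells (also on some relapse-free plates), and every metastasis sample derives from 1 injected tumor line.

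Arginase 1 and arginase 2 split arginine into ornithine and urea, the first in the cytosol and the second in mitochondria, whereas inducible nitric oxide synthase, encoded by Nos2, uses the same arginine to make nitric oxide and citrulline. Slc7a2 encodes CAT2, a membrane transporter that carries arginine into the cell. In myeloid cells Arg1 is known for induction by interleukin-4, hypoxia and lactate and for arginine depletion that restrains T cells, and Nos2 for induction by interferon and microbial products. In GRCm38 (mm10; GENCODE vM21) Arg1 spans chr10:24915221-24927484 (minus strand), Arg2 chr12:79130777-79156301 (plus strand), Nos2 chr11:78920787-78960254 (plus strand) and Slc7a2 chr8:40862396-40922308 (plus strand). The counts are of 3′ ends per gene, so levels are compared between cells and tissues and not between genes.

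Depth ranged from 55 to 1974 immune cells per sample. The median UMI count per cell lay between 629 and 2744 in lung and metastasis samples and between 1972 and 3690 in primary tumors. The 592 wells that received no cell held 0 UMIs of each of the 4 genes, among 8490 UMIs in all, which allows up to 353 CPM. No well was shared between plates. The labels carried their defining markers: Mac_Cd9, the alveolar macrophages, held Fabp1 at 1268 CPM and Siglecf at 254 CPM, against 0 to 1.6 CPM in the other macrophage labels. Retnlg and Cxcr2 were highest in neutrophil labels, and the CD3, CD79 and NK receptor genes were near 0 in macrophages. As a background, B cells, which lack these genes, held an Arg1 UMI in 2 of 1055 cells (0.190%), an Arg2 UMI in 3 (0.284%) and no Nos2 or Slc7a2 UMI, at a median of 1001 UMIs per cell. NK cells held Arg1 in 0.518% and Arg2 in 0.598% of 2510 cells, and T cells held them in 0.833% and 0.570% of 6846 cells, at medians of 1002 and 996.5 UMIs.

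The 4 genes differed in the myeloid labels that held most of their UMIs, although Arg2 and Nos2 both lay mostly in neutrophils. Of 1642 Arg1 UMIs in immune cells, 60.5% were in macrophages and 29.7% in monocytes, and 4 labels, Mac_Isg20, Mon_Thbs1, Mac_Gpnmb and Mac_Cd81, held 33.4%, 25.0%, 16.9% and 9.7% of them. Of 2561 Arg2 UMIs, 81.1% were in neutrophils. Of 144 Nos2 UMIs, 69.4% were in neutrophils, and 1 label, Neut_Lcn2, held 61.8% of the total. This placement rested on mouse 37, which gave 81 of the 89 Nos2 UMIs of Neut_Lcn2. In the other mice Neut_Lcn2 held 8 Nos2 UMIs and Mon_Thbs1 19. Of 258 Slc7a2 UMIs, 84.5% were in macrophages and 67.4% in alveolar macrophages.

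**Figure D1:**
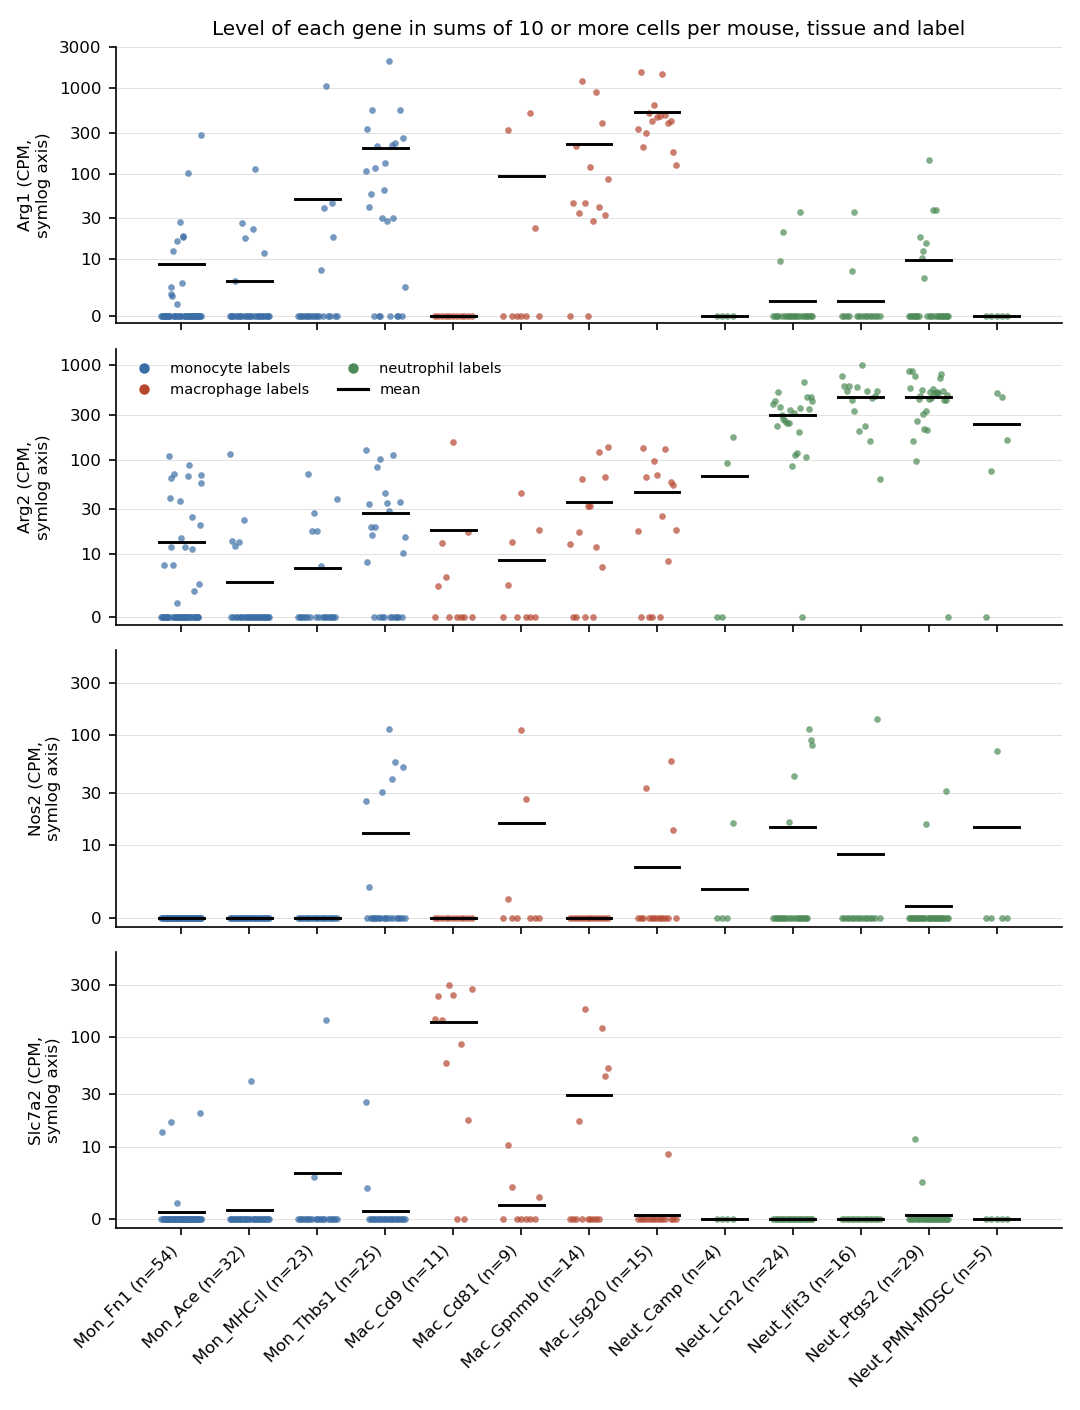
CPM of Arg1, Arg2, Nos2 and Slc7a2 (vertical symlog axes, linear near 0 and logarithmic above, 1 panel per gene) in every sum of a mouse, tissue and myeloid label with 10 or more cells (points), with the mean per label (black lines). Arg1 is highest in Mac_Isg20 (mean 526 CPM), Arg2 in the neutrophil labels (467 CPM in Neut_Ptgs2 and Neut_Ifit3) and Slc7a2 in Mac_Cd9 (137 CPM), while most Nos2 sums are at 0.

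Arg1 was highest in Mac_Isg20, a tumor-associated macrophage label, at 526 ± 415 CPM (SD, n = 15 sums; lowest 126, median 412, highest 1521), and no Mac_Isg20 sum was at 0. Mac_Gpnmb, the label of the TREM2 macrophages that the study calls Mregs, followed at 223 ± 367 CPM (n = 14; median 45.5, highest 1192), and Mon_Thbs1, an inflammatory monocyte label, at 202 ± 422 CPM (n = 25; median 58.5, highest 2073). A mouse can enter these means with several tissues, and the 15, 14 and 25 sums came from 11, 9 and 17 mice. The ranges of the 3 labels overlapped, but in the samples that held both labels Mac_Isg20 was above Mac_Gpnmb in 8 of 9 and above Mon_Thbs1 in 13 of 15. Mac_Gpnmb was above Mon_Thbs1 in 5 of 10 samples, so the order of these lower 2 labels was not resolved. The tumor macrophages Mac_Cd81 held 94.95 ± 188 CPM (n = 9), with 6 of 9 sums at 0, and Mon_MHC-II monocytes 51.1 ± 221 CPM (n = 23), with 18 sums at 0 and the highest, 1064 CPM, in the metastasis of mouse 30. Mon_Fn1 monocytes held 9.23 ± 40.7 CPM (n = 54), with 42 sums at 0 (4.13 CPM without mouse 37), and Mon_Ace monocytes 6.19 ± 20.6 CPM (n = 32). All 11 sums of alveolar macrophages were at 0, while 3 alveolar cells of cores, too few for a sum, held 7 UMIs. The alveolar sums came from Normal (3), relapse-free (4) and distal (3) tissue and from a single metastasis. The Mac_Isg20 sums came from metastases (8) and cores (7), so label and tissue cannot be told apart between them. Labels were made by clustering expression, so no test was made between them.

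Arg1 was detected in a minority of cells, and most of its UMIs lay in the few cells that held many. An Arg1 UMI was found in 98 of 494 Mac_Isg20 cells (19.8%, exact 95% interval 16.4 to 23.6%), 46 of 449 Mac_Gpnmb cells (10.2%, 7.60 to 13.4%), 53 of 1109 Mon_Thbs1 cells (4.78%, interval 3.600 to 6.205%) and 13 of 409 Mac_Cd81 cells (3.18%, 1.70 to 5.37%). With cells thinned to 500 UMIs these shares were 12.8%, 5.57%, 3.34% and 1.22%. All intervals and floors given here cover counting error only. Within Mac_Isg20, 37 cells with 5 or more UMIs held 434 of 549 Arg1 UMIs, and the 33 cells with a single UMI held 6.01%. In Mon_Thbs1, 21 such cells held 369 of 410 UMIs. A single Mac_Gpnmb cell held 124 UMIs, 44.6% of that label's total, and a single Mac_Cd81 cell of a primary tumor held 126 of 159. For Arg2 in neutrophils, 1 of 300 positive Neut_Ptgs2 cells and none of 365 positive Neut_Lcn2 cells held 20 or more UMIs. The median cells of these labels held 944.5 and 1076 UMIs, against 1333.5 in Mac_Isg20 and 1744 in Mon_Thbs1. Such a cutoff depends on depth, so the spread of the 2 genes was not compared.

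**Figure D2:**
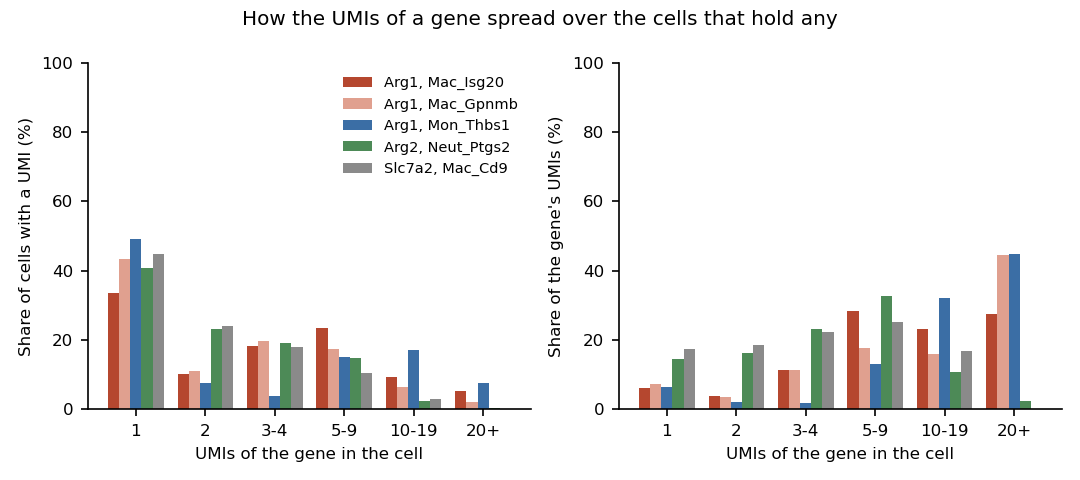
Share of positive cells and share of the gene's UMIs (percent) by the number of UMIs of that gene per cell, for Arg1 in Mac_Isg20, Mac_Gpnmb and Mon_Thbs1, Arg2 in Neut_Ptgs2, and Slc7a2 in Mac_Cd9 (bars). Cells with 20 or more UMIs hold 27.5%, 44.6% and 44.9% of the Arg1 UMIs in the 3 labels and 2.48% of the Arg2 UMIs in Neut_Ptgs2. The median cells of these labels hold 1333.5, 1726, 1744 and 944.5 UMIs, and the cutoff depends on this depth.

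To see where in the lung Arg1 was expressed, macrophages of metastases were compared with those of distal tissue. In distal tissue 5 of 6 macrophage sums were at 0 and the sixth, from mouse 33, held 1 UMI (78.4 CPM). In whole metastases the lowest of 9 sums was 0, the median 165 and the highest 771 CPM. Of the 9 metastasis sums, 8 lay above the highest distal sum, and in all 5 mice with both tissues the metastasis was higher (332 against 15.7 CPM on average). Pooled over these sums there were 409 UMIs in metastases (306 CPM) and 1 in distal tissue (7.42 CPM), a ratio of 41.3 with an exact counting interval of 7.37 to 1635. Over all macrophages, sums under 10 cells included, there were 409 UMIs in 521 cells (292 CPM) and 4 in 119 cells (19.3 CPM), a ratio of 15.1 (5.86 to 55.8). Both intervals count UMIs as independent, although 25 metastasis cells held 333 of the 409 and a single cell held 124 (205 CPM without it). An Arg1 UMI was found in 70 of the 521 cells (13.4%, 10.6 to 16.7%) and 3 of the 119 (2.52%, 0.523 to 7.19%). The median cells held 1633 and 1100 UMIs, and the thinned shares were 8.06% and 0.840%. edgeR's quasi-likelihood test gave a log2 change of 5.17 (SE 1.19, adjusted p = 0.00659), a fold change that depends on the prior count because distal tissue held 1 UMI. Arg1 passed the filter on low counts through the metastasis sums alone, so the call adds little to the counts above. In this comparison 9.23% of the 1289 genes tested were called, 85 higher and 34 lower, a split of 56 and 56 without TMM scaling. With only cells of 1000 or more UMIs, which left 2 distal sums, Arg1 was no longer called (adjusted p = 0.214). The median log2 change of all genes tested was 0.15 with TMM scaling and −0.14 without, against an Arg1 change of 5.17 and 4.94. Within the 2 sequencing batches with both tissues, pooled Arg1 was 329 against 9.96 CPM and 439 against 40.5 CPM.

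The kinds of macrophage differed between the tissues. Among all distal macrophages 59.7% were alveolar (Mac_Cd9) and 5.88% Mac_Isg20, whereas in metastases 8.83% were alveolar, 39.9% Mac_Isg20 and 32.8% Mac_Gpnmb. The summed level of 6 alveolar markers in the compared sums ranged from 567 to 4868 CPM in distal tissue and from 0 to 936 CPM in metastases, and that of 4 monocyte markers from 37.3 to 736 and from 220 to 2001 CPM. Summed markers of neutrophils ranged from 157 to 3232 CPM in distal tissue and from 83.2 to 1763 CPM in metastases, those of T cells from 0 to 369 and from 43.0 to 276 CPM, and those of B cells from 0 to 56.7 and from 0 to 25.0 CPM. The T cell list includes Il7r, whose protein the study reports on Mregs, so its sum need not be T cell RNA. The part of this makeup in the Arg1 difference was not tested, since no Mac_Isg20 or Mac_Gpnmb sum of distal tissue had 10 cells. The 7 distal Mac_Isg20 cells held 2 Arg1 UMIs and the 19 distal Mac_Gpnmb cells held 1. In sums that mix cells, a larger share of a cell type and more RNA per cell cannot be told apart.

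Within single labels, Arg1 in metastases was 556 ± 415 CPM in Mac_Isg20 (n = 8; 126 to 1521) and 198 ± 313 CPM in Mac_Gpnmb (n = 7; 34.4 to 893; 82.3 CPM without mouse 32), so every metastasis sum of both labels held the transcript. In lungs without metastases, macrophages were mostly alveolar in Normal (93.0%) and relapse-free (80.0%) lungs, and Arg1 was 0 in all 3 Normal and all 4 relapse-free macrophage sums. The Pre-MET lungs gave no sum, and 0 of their 10 macrophages held Arg1 (exact interval 0 to 30.8%), too few to compare.

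**Figure D3:**
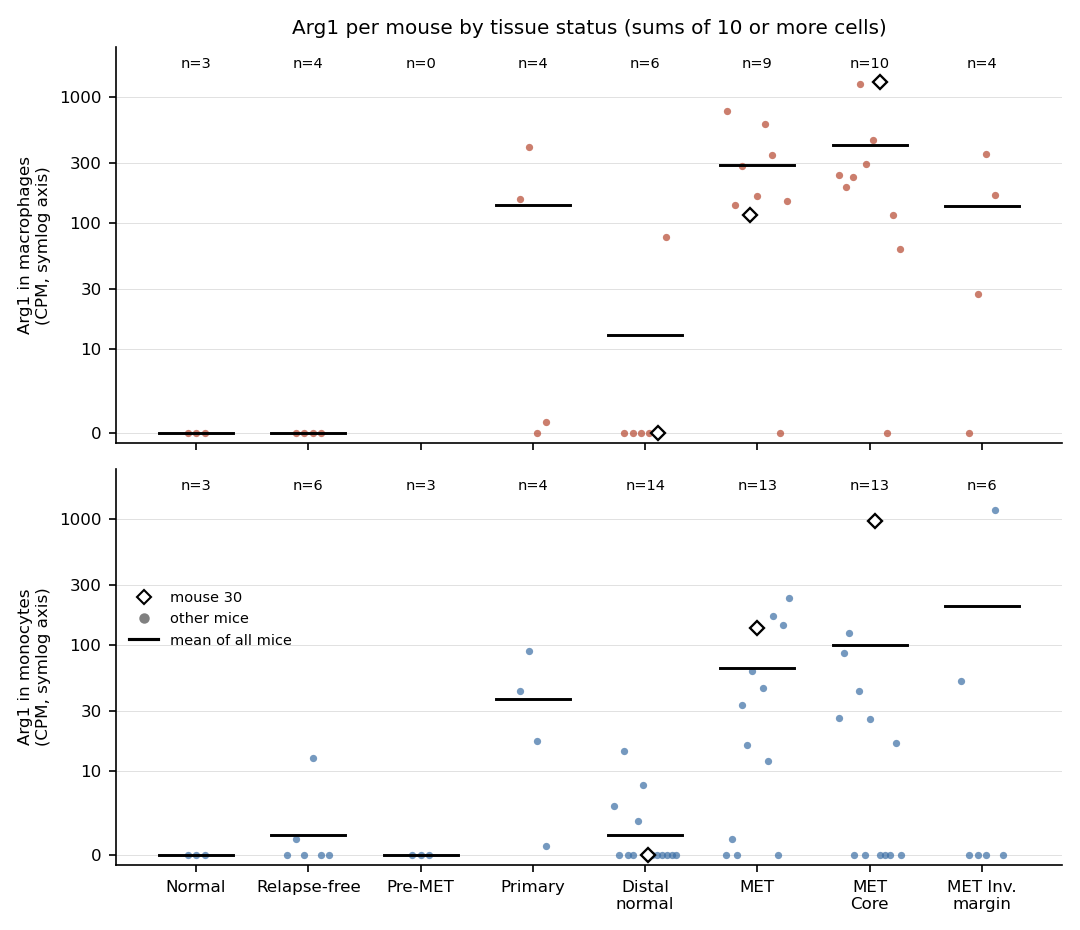
Arg1 CPM per mouse (points, mouse 30 as a diamond; symlog axes) with the group mean (black lines) by tissue, in macrophages and in monocytes. Macrophages of whole metastases reach 771 CPM and those of cores 1312 CPM, while the highest distal macrophage sum is 78.4 CPM, and the core and margin of monocytes each have 1 mouse far above the rest (964 and 1173 CPM).

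Core and margin were compared to place Arg1 in and around the lesion. Macrophages of the core held 419 ± 479 CPM (n = 10; lowest 0, median 236, highest 1312) and those of the margin 0, 27.4, 356 and 169 CPM (mean 138 ± 163). The margin values lay inside the range of the core, and the difference did not pass the test (log2 1.29, SE 1.01, adjusted p = 0.750). edgeR called 0% of 1743 genes between core and margin macrophages, with 173 at an unadjusted p below 0.05 and 12 by DESeq2. The direction was not stable: with batch in the model the log2 change was −0.22, and pooled core and margin levels within the 4 batches were 240 against 0, 345 against 533, 0 against 269 and 102 against 169 CPM. Mac_Isg20 made up 56.6% of core macrophages and Mac_Gpnmb 80.0% of margin macrophages. Within Mac_Gpnmb, the core sums were 1192, 33.2 and 0 CPM and the margin sums 0, 28.2, 392 and 86.4 CPM, and these ranges overlapped. The highest core sums came from mouse 30 (1312 CPM in all macrophages, 1463 CPM in Mac_Isg20, 1192 CPM in Mac_Gpnmb). Without it the core mean was 319 ± 384 CPM in macrophages and 331 ± 135 CPM in Mac_Isg20.

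Macrophages of the 4 primary tumors held 156, 404, 0 and 1.4 CPM of Arg1 (140 ± 190 CPM), against 419 ± 479 CPM in the core, and the difference did not pass the test (log2 −1.52, SE 1.31, adjusted p = 0.649), where 4.35% of 2162 genes were called. The higher 2 of these tumors rested on few cells. In mouse 9, 1 Mac_Cd81 cell held 126 UMIs and 2 of its 5 Mac_Isg20 cells held 44, and in mouse 8, 1 of 5 Mac_Isg20 cells held 15. Mac_Cd81 made up 82.5% of primary tumor macrophages, so the labels compared differed here too.

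In monocytes the same tissues stood apart at lower levels. Distal monocytes held 2.32 ± 4.38 CPM of Arg1 (n = 14; 10 sums at 0, highest 14.3), and monocytes of metastases 65.8 ± 78.9 CPM (n = 13; 3 sums at 0, median 33.0, highest 236). The metastasis was higher in 9 of 13 mice, lower in 1, and both tissues were at 0 in 3. The pooled counts were 189 UMIs in metastases (60.7 CPM) and 7 in distal tissue (2.53 CPM), a ratio of 23.9 with an exact counting interval of 11.4 to 60.3. This interval counts UMIs as independent, although 10 metastasis cells held 160 of the 189. An Arg1 UMI was found in 31 of 1483 metastasis cells (2.09%, 1.42 to 2.95%) and 7 of 1149 distal cells (0.609%, 0.245 to 1.25%). The median cells held 1313 and 1426 UMIs, and the thinned shares were 1.28% and 0.174%. The filter on low counts removed Arg1 from this comparison, where edgeR called 1.38% of 2098 genes, all higher in metastases, and 74 genes with the mouse as a replicate block. With the 4 genes retained through the filter, an alternative chosen after seeing the data, the log2 change was 4.60 (adjusted p = 0.000662), and with the mouse as a replicate block 5.52 (adjusted p = 2.13e-06). The choice followed the counts above, so these calls add little to them. Within 3 batches the pooled levels were 42.3 against 3.66, 62.7 against 0 and 81.6 against 0 CPM.

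Most of the Arg1 of metastasis monocytes lay under Mon_Thbs1, with 137 UMIs in 384 cells, and 32 UMIs lay in the 715 Mon_Fn1 cells. Mon_Thbs1 was 25.9% of monocytes in metastases and 4.35% in distal tissue, where its 50 cells held 0 Arg1 UMIs. The summed macrophage markers in these monocyte sums ranged from 223 to 3358 CPM in distal tissue and from 283 to 2421 CPM in metastases, with overlapping ranges. Within Mon_Thbs1, Arg1 was 145 ± 178 CPM in metastases (n = 10; 3 sums at 0, highest 558), 319 ± 712 CPM in cores (n = 8; median 61.5, highest 2073) and 108, 336, 40.5 and 5.1 CPM in the primary tumors. Between primary tumors and cores the difference was within the spread (log2 −1.29, SE 1.44, adjusted p = 0.723; 1.36% of 2345 genes called). This direction rested on mouse 30, since without it the core mean fell to 68.4 ± 75.2 CPM and the log2 change was 1.06.

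In monocytes of core and margin, Arg1 was 99.0 ± 263 CPM (n = 13; 6 sums at 0) and 204 ± 475 CPM (n = 6; 4 sums at 0), and each mean was set by 1 mouse, mouse 30 at 964 CPM in the core and mouse 33 at 1173 CPM in the margin. Without mouse 30 the core mean was 26.9 ± 40.3 CPM. In the 5 mice with both zones the core was higher in 3, lower in 1 and 0 in both zones in 1 (22.4 against 10.4 CPM on average). edgeR called 0% of 1025 genes in this comparison (86 at an unadjusted p below 0.05, 5 by DESeq2, 53 with the replicate block), after the filter had removed Arg1. Normal and Pre-MET monocytes held 0 Arg1 UMIs in 3 of 3 sums each, and the 4 primary tumors held between 1.1 and 88.6 CPM. Of 4953 genes, 4.22% were called between Pre-MET and Normal monocytes, and 1.36% of 1835 between primary and core monocytes. Normal plates formed a sequencing batch of their own, so batch and group cannot be told apart in the former.

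Mouse 30 stood apart in the Arg1 of its myeloid cells. Its myeloid cells in metastasis and core held 596 CPM of Arg1 (37 of 329 cells, 11.2%) against 94.1 CPM in metastasis, core and margin of the other mice (194 of 5022, 3.86%), at a median of 946 against 1223 UMIs per cell. It was highest in its core, while its metastasis macrophages held 116 CPM, below the median of that group. Its B, T and NK cells there held 12.8 CPM against 12.0 CPM. Its metastasis and core were sequenced in a batch of their own, so mouse and batch cannot be told apart. Within labels, its share of cells with Arg1 was 22.4% against 19.4% in Mac_Isg20, 10.3% against 10.2% in Mac_Gpnmb and 22.0% against 4.12% in Mon_Thbs1, compared with all other mice. Without it the label mean was 129 CPM in Mon_Thbs1, 43.2 CPM in Mac_Cd81, 5.06 CPM in Mon_MHC-II and 2.95 CPM in Mon_Ace, each over 1.5 times lower, and 459 CPM in Mac_Isg20. Without this mouse, metastasis macrophages held 309 ± 262 CPM (n = 8). A further 15 cells of this mouse, with 278 Arg1 UMIs, carry the deposited label outlier and are in none of its values here, and what they would add to a label was not tested.

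Arg2, the mitochondrial arginase, was a neutrophil transcript in these data and was detected in neutrophils of all 42 sums of a mouse and tissue. By label it was 467 ± 217 CPM in Neut_Ptgs2 (n = 29; 0 to 876), 467 ± 237 CPM in the interferon-response label Neut_Ifit3 (n = 16; 63.0 to 1001), 301 ± 155 CPM in Neut_Lcn2 (n = 24; 0 to 659), 242 ± 230 CPM in PMN-MDSC (n = 5) and 67.1 ± 84.5 CPM in the immature neutrophils Neut_Camp (n = 4; highest 176). All these ranges overlapped, and 11 of the 12 Neut_Camp UMIs came from mouse 37. Macrophage and monocyte labels lay lower, from 45.5 ± 46.9 CPM in Mac_Isg20 to 5.56 CPM in Mon_Ace (2.02 CPM without mouse 1). An Arg2 UMI was found in 365 of 1604 Neut_Lcn2 cells (22.8%, 20.7 to 24.9%), 300 of 1492 Neut_Ptgs2 cells (20.1%, 18.1 to 22.2%) and 116 of 639 Neut_Ifit3 cells (18.2%, 15.2 to 21.4%), and thinned to 500 UMIs in 12.97%, 14.0% and 12.1%. The median cells of these labels held 1076, 945 and 886 UMIs, and the order of the first pair turned with the thinning.

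For Arg2 no difference between metastases and distal tissue passed the test. Neutrophils held 442 ± 206 CPM in distal tissue (n = 9; 239 to 732) and 345 ± 235 CPM in metastases (n = 9; 60.1 to 791), with overlapping ranges, and in the 6 mice with both tissues the metastasis was higher in 2 and lower in 4. The log2 change was −0.24 (SE 0.33, adjusted p = 0.999), and edgeR called 0% of 715 genes (27 at an unadjusted p below 0.05, 0 by DESeq2). Within batches the pooled levels were 213 against 254, 577 against 597 and 467 against 494 CPM. In the macrophages, the metastases held 36 Arg2 UMIs (27.0 CPM) and distal tissue 0, where a floor of 3 UMIs over the distal group is 22.3 CPM. The ratio of 1.21 to this floor leaves out the counting error of the 36 UMIs and is no lower bound.

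Within neutrophil labels the comparison with distal tissue gave no difference beyond the spread. In Neut_Lcn2, Arg2 was 300.5 ± 126 CPM in distal tissue (n = 6) and 233 ± 232 CPM in metastases (n = 7; log2 −0.26, SE 0.50, adjusted p = 0.995), and lower in the metastasis in 4 of 4 mice with both. In Neut_Ptgs2 it was 519 ± 113 CPM and 512 ± 190 CPM (n = 6 each; log2 0.05, SE 0.39, adjusted p = 0.982), and higher in the metastasis in 3 of 3 mice. edgeR called 0% of 371 genes in Neut_Lcn2 and 0% of 485 in Neut_Ptgs2, with 5 and 22 at an unadjusted p below 0.05 and 0 by DESeq2 in both.

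**Figure D4:**
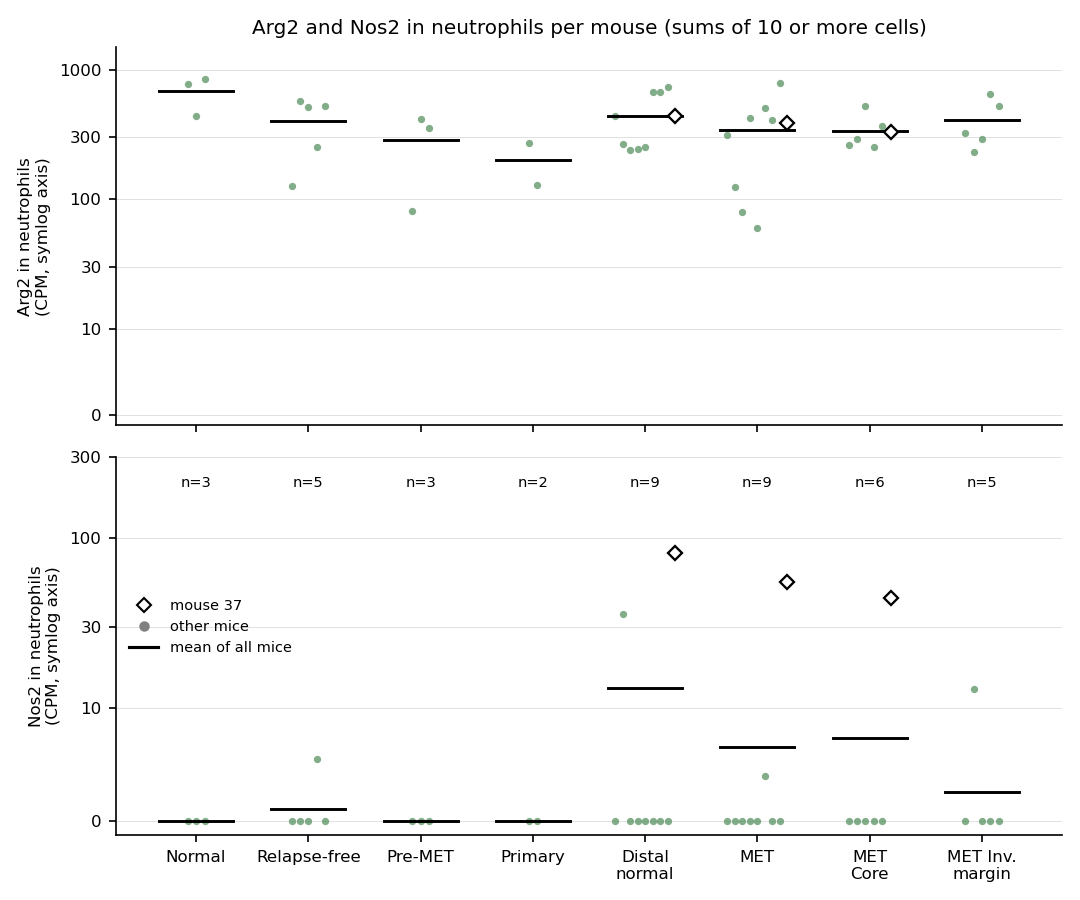
Arg2 and Nos2 CPM in neutrophils of each mouse (points, mouse 37 as a diamond; symlog axes) with the group mean (black lines) by tissue. Arg2 is above 0 in every sum, from a mean of 201 CPM in primary tumors to 684 CPM in Normal lungs, while the highest Nos2 points in distal tissue, metastasis and core (81.6, 54.8 and 44.1 CPM) are all from mouse 37.

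Across the other tissues Arg2 in neutrophils was 770, 439 and 843 CPM in Normal lungs, 81.5, 420 and 354 CPM in Pre-MET lungs, 399 ± 198 CPM in relapse-free lungs (n = 5), 339 ± 102 CPM in cores (n = 6), 406 ± 177 CPM in margins (n = 5) and 201 ± 101 CPM in primary tumors (n = 2). All 3 Pre-MET values lay below all 3 Normal values, as in 4.34% of the 2697 genes with at least 10 UMIs in these sums. The difference did not pass the test (log2 −1.15, SE 0.67, adjusted p = 0.641; 1.06% of 377 genes called), and batch and group cannot be told apart. In Neut_Ptgs2 the Pre-MET values (96.9, 256 and 437 CPM, 10 UMIs in all) and the Normal values (873, 571 and 876 CPM, 37 UMIs) lay apart in the same direction, as in 5.67% of 1394 genes, and the filter on low counts removed the gene there. Between core and margin, where 0.463% of 216 genes were called in neutrophils, Arg2 was higher in the core in 2 and lower in 2 of 4 mice.

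Nos2 was rare. In no label did its mean exceed 15.7 ± 37.3 CPM (Mac_Cd81, n = 9, with 6 sums at 0 and 6 of 7 UMIs from mouse 26; 0.366 CPM without it), and none of the 54 Mon_Fn1, 32 Mon_Ace, 23 Mon_MHC-II, 11 Mac_Cd9 and 14 Mac_Gpnmb sums held a Nos2 UMI. The label with most Nos2 UMIs, Neut_Lcn2, had them in 45 of 1604 cells (2.81%, 2.05 to 3.74%; 1.496% thinned), at 14.5 ± 33.2 CPM with 19 of 24 sums at 0. In Mon_Thbs1 12 of 1109 cells held one (1.08%, 0.560 to 1.88%), at 12.9 ± 27.5 CPM with 18 of 25 sums at 0.

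The Nos2 of neutrophils came mostly from 1 mouse. Mouse 37 gave 90 of the 100 neutrophil UMIs, in 45 of its 741 neutrophils (6.07%) against 7 of 3231 in all other mice (0.217%), which is 73.8 against 2.57 CPM at a median of 1376 against 930 UMIs per cell. Its positive Neut_Lcn2 cells lay mainly in distal tissue (33 of 377 cells, 67 UMIs), with 4 of 85 in the metastasis and 3 of 33 in the core. The other 5 mice of its batch held 0 Nos2 UMIs in Neut_Lcn2 cells, and mouse 31, 1 of them, held 1 UMI in its other metastasis neutrophils. The 177 B, T and NK cells of mouse 37 held 0. Its Arg2 level was 423 against 400 CPM in all neutrophils and 453 against 332 CPM in Neut_Lcn2. In that label 32.9% against 18.2% of cells held an Arg2 UMI, at medians of 1559 and 956 UMIs. Without mouse 37, Neut_Lcn2 held 2.82 ± 9.84 CPM of Nos2 (n = 21), with 19 sums at 0.

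In monocytes Nos2 was found in metastases and not in distal tissue, at a low level. There were 15 UMIs in 4 of 13 metastasis sums (4.81 CPM pooled) and 0 in the 14 distal sums, where a floor of 3 UMIs is 1.09 CPM. The ratio of 4.43 to this floor leaves out the counting error of the 15 UMIs, which lay in 7 cells, and is no lower bound. The metastasis was higher in 4 of 13 mice and both tissues were at 0 in 9. Nos2 did not pass the filter on low counts, and with the 4 genes retained its log2 change of 3.39 had an adjusted p of 0.265. Of these UMIs 14 lay under Mon_Thbs1, the label that held most Arg1 in monocytes. Metastasis macrophages held 8 Nos2 UMIs and distal macrophages 0, which this depth cannot separate.

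Slc7a2, the arginine transporter, was highest in the alveolar macrophages, at 137 ± 113 CPM in Mac_Cd9 (n = 11; 0 to 296, median 144). It was 29.6 ± 55.5 CPM in Mac_Gpnmb (n = 14; 9 sums at 0, highest 182; 19.4 CPM without mouse 30), 6.42 ± 29.6 CPM in Mon_MHC-II (n = 23; 0.264 CPM without mouse 30, whose sum held 2 UMIs) and at most 1.97 CPM elsewhere. A UMI was found in 67 of 439 Mac_Cd9 cells (15.3%, 12.0 to 18.97%; 6.15% thinned) and 19 of 449 Mac_Gpnmb cells (4.23%, 2.57 to 6.53%; 1.11% thinned). Mac_Isg20, the label with the highest Arg1, held 1 Slc7a2 UMI in its 15 sums, and Mac_Cd9 held no Arg1 UMI in its 11 sums.

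**Figure D5:**
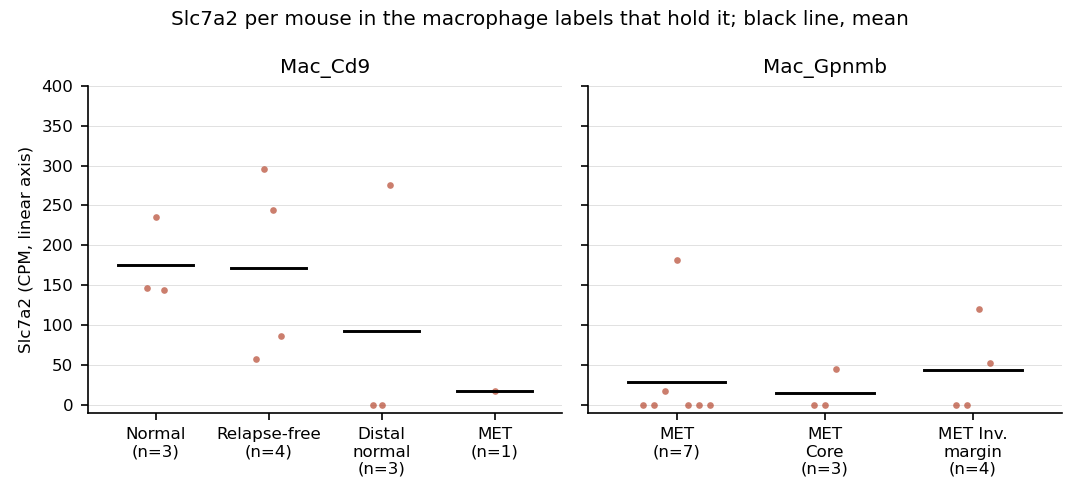
Slc7a2 CPM per mouse (points, linear axis) with the mean (black lines) by tissue, in Mac_Cd9 (left) and Mac_Gpnmb (right). Normal and relapse-free Mac_Cd9 lie at means of 176 and 171 CPM with overlapping values, and most Mac_Gpnmb points are at 0, the highest at 182 CPM in a metastasis.

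By tissue, macrophage Slc7a2 was 164 ± 60.9 CPM in Normal lungs (n = 3), 147 ± 95.6 CPM in relapse-free lungs (n = 4), 48.6 ± 94.1 CPM in distal tissue (n = 6; 4 sums at 0), 19.9 ± 36.8 CPM in metastases (n = 9), 36.3 ± 51.3 CPM in margins (n = 4), 4.1 ± 4.0 CPM in primary tumors (n = 4) and 2.2 ± 7.0 CPM in cores (n = 10; 9 sums at 0). Alveolar cells made up 93.0%, 80.0% and 59.7% of the macrophages of Normal lungs, relapse-free lungs and distal tissue, and the part of these shares in the levels was not tested. Within Mac_Cd9 the Normal values were 147, 236 and 144 CPM and the relapse-free values 57.7, 296, 244 and 86.6 CPM. The 3 distal Mac_Cd9 sums were 0, 0 and 276 CPM and the 1 metastasis sum 17.4 CPM, resting on 3 UMIs and 1 UMI. Over all Mac_Cd9 cells, sums under 10 cells included, there were 10 UMIs in 71 distal cells (107 CPM) and 11 in 46 metastasis cells (77.7 CPM). Within Mac_Gpnmb it was 28.4 ± 67.9 CPM in metastases (n = 7; 2.87 CPM without mouse 30), 0, 0 and 44.2 CPM in cores and 0, 0, 51.8 and 120 CPM in margins, and these ranges overlapped. In the 5 mice with both tissues, macrophage Slc7a2 was higher in the metastasis in 2, lower in 2 and 0 in both in 1.

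Few cells held a pair of the genes. Arg1 and Arg2 were found together in 20 myeloid cells, where 15.3 would hold both if the genes were independent within each of the 13 labels. In Mac_Isg20 6 of 28 cells with Arg2 also held Arg1 (5.55 if independent) and 2 of 5 cells with Nos2 did (0.992 if independent). In Mon_Thbs1, 4 of 12 Nos2 cells held Arg1 (0.573 if independent), in Neut_Lcn2 15 of 45 Nos2 cells held Arg2 (10.24 if independent), and in Mac_Gpnmb 5 of 19 Slc7a2 cells held Arg1 (1.95 if independent). Of the 45 Nos2 cells of Neut_Lcn2, 40 came from mouse 37, whose cells of this label held Arg2 in 32.9%, against 18.2% in the other mice. The expected counts take no account of mouse. Deeper cells hold more of any gene, and these counts are given as a description.

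The rest of the pathway was followed with a list of 44 genes of arginine transport, nitric oxide synthesis, citrulline recycling, polyamines and tetrahydrobiopterin, 42 of which were measured. Between metastasis and distal macrophages 3 passed the filter on low counts and 2 rose, where 9.23% of all 1289 genes tested were called: Slc3a2, the heavy chain shared by several amino acid transporters (log2 2.32, SE 0.51, adjusted p = 0.00446), and Sat1, which acetylates polyamines for export (log2 1.65, SE 0.42, adjusted p = 0.0137). The median log2 change of the 3 was 1.65, against 0.15 over all genes tested. Of 10 genes linked with Arg1 induction or with the same macrophage state, 3 passed and 2 fell: Chil3, a chitinase-like protein also abundant in alveolar macrophages (log2 −2.76, SE 0.55, adjusted p = 0.00377), and Mrc1, the mannose receptor (log2 −1.91, SE 0.45, adjusted p = 0.00667). Of 10 genes linked with Nos2 induction, 6 passed and Il1b, the inflammatory cytokine, rose (log2 2.70, SE 0.43, adjusted p = 0.00046). With the mouse as a replicate block Sat1 was no longer called (log2 0.91, adjusted p = 0.209). The alveolar share of macrophages moved with these changes, and its part in them was not tested.

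In the other comparisons few listed genes passed the test. Mrc1 was higher in primary tumor than in core macrophages (log2 2.30, SE 0.61, adjusted p = 0.0392; 4.35% of all genes called), a call that was lost without primary tumor 9, 10 or 38 (adjusted p = 0.189, 0.119 and 0.0671). Within Mac_Cd81 the log2 change was 4.43 (SE 0.80, adjusted p = 0.00136; 7.87% of 1563 genes called). In Pre-MET against Normal monocytes 8, 7 and 8 genes of the 3 lists passed the filter, where 4.22% of all 4953 genes were called and batch and group cannot be told apart, and Chil3 rose (log2 2.22, SE 0.29, adjusted p = 0.000239) while Klf4, a transcription factor of monocyte differentiation, fell (log2 −1.35, SE 0.27, adjusted p = 0.00933). The call of Klf4 was lost without Normal lung 3 or Pre-MET lung 8 or 10 (adjusted p 0.0504 to 0.0698). No listed gene was called in monocytes between metastasis and distal tissue (3, 5 and 7 tested), between core and margin, or between primary tumor and core, nor in neutrophils.

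The genes whose levels were most like a member over the 261 myeloid sums were named by the highest Pearson correlation of log2(CPM + 10). For Arg1 they were Ccl7 (0.67), Emp1 (0.66), Pf4 (0.65), C3ar1 (0.65) and Pdpn (0.63). For Arg2 they were Cxcr2 (0.82), Hdc (0.78), Slc40a1 (0.78), Acod1 (0.77) and Mmp9 (0.77), and for Slc7a2 Krt79 (0.68), Fabp1 (0.67), Krt19 (0.67), Plet1 (0.64) and Ltc4s (0.62). For Nos2 no gene exceeded 0.36 (Prok2), followed by Upp1 (0.35), Rhov (0.32), Gpat3 (0.30) and Fosl1 (0.30). These sums share mice, plates and depth, so the values describe likeness over labels and tissues only.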

How the data were processed

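Single-cell libraries were prepared by the authors on 384-well plates with UMI barcoding of mRNA 3′ ends (148 plates). Per the study's methods, reads were mapped to mm10 with HISAT, reads with multiple positions were excluded and the rest assigned to exons. The submitters' processing notes name bcl2fastq 2.15.0.4. The authors deposited raw UMI counts per gene and well, without normalization, and an annotation of 24020 wells with mouse, tissue, batch and cluster label, all of 500 or more UMIs. Wells labelled outlier, erythrocyte or tumor (595) were left out of the sums and comparisons. Sorting gates had excluded doublets, and no doublet caller was run. Spike-in entries (92) held 0 UMIs.

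Here UMIs were summed per mouse, tissue and label or lineage over 10 or more cells, so that sums of a mouse and tissue, and not cells or plates, were the replicates. Within a tissue each sum is a separate mouse, and across tissues a mouse can give several sums to the mean of a label. Sums of a lineage (macrophages, monocytes, neutrophils) or label with at least 3 sums per group were compared with edgeR 4.0.16 (TMM, filterByExpr, quasi-likelihood F test, two-sided, Benjamini-Hochberg adjustment over all genes tested) under R 4.3.3, with 0.05 as the threshold of the adjusted p. Sums were made with Python 3.11.15, numpy 2.4.6 and pandas 2.3.3, exact intervals with scipy 1.17.1 and figures with matplotlib 3.10.9. Scripts were tested on simulated counts. Shares of cells with a UMI have exact (Clopper-Pearson) 95% intervals and were repeated after thinning each cell to 500 UMIs. A count of 0 was given a floor of 3 UMIs. Depth was 55 to 1974 immune cells per sample.

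The named genes were the 4 members, the called genes of the pathway and companion lists, and the 5 genes most correlated with each member among those with a mean of 20 CPM or more. The result of 1 listed gene is not reported here. Members and lists were chosen with earlier results of these data known. Alternatives were DESeq2 1.42.0, library totals without TMM, no filter, minimums of 5 and 20 cells, cells of 1000 or more UMIs, a batch term and the mouse as a block. In lineage comparisons each sample of a group of 5 or fewer sums was also left out. Same-numbered samples are the same mouse in the labels. Their deviations from the group means correlated at 0.0568 (5 mice, macrophages), 0.152 (13, monocytes) and 0.162 (6, neutrophils) between metastasis and distal tissue, and at 0.178 (2), 0.181 (5) and 0.102 (4) between core and margin, against −0.0146 to −0.00586 between different mice over all comparisons.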

Additional observations from a re-analysis of the deposited data

Results flagged for a closer look

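In 14 of 35 groups of 4 to 10 samples, 1 sample lay farther from its neighbour than Dixon's 95% limit, which chance exceeds in about 1 in 20 groups. Many of these groups hold several zeros, so that a single positive sample is enough. For Arg1 these were distal macrophages of mouse 33 (78.4 CPM, the others 0), margin monocytes of mouse 33 (1173 CPM, next 51.9), relapse-free monocytes of mouse 18 (12.5 CPM, next 1.84), metastasis Mac_Isg20 of mouse 23 (1521 CPM, next 638), core Mac_Isg20 of mouse 30 (1463 CPM, next 512), metastasis Mac_Gpnmb of mouse 32 (893 CPM, next 210), metastasis Mon_Thbs1 of mouse 36 (558 CPM, next 257) and core Mon_Thbs1 of mouse 30 (2073 CPM, next 212).

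For Nos2 in neutrophils they were mouse 37 in distal tissue (81.6 CPM, next 35.6), in the metastasis (54.8 CPM, next 3.99) and in the core (44.1 CPM, the others 0), its metastasis Neut_Lcn2 (82.0 CPM, the others 0), mouse 26 in the margin (12.98 CPM) and mouse 18 in relapse-free lung (5.48 CPM), the others of both groups at 0. Mouse 37 thus stood apart in 3 tissues taken from the same animal.

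Both arginases were also found in wells that the comparisons left out. Cells that the deposited annotation calls outliers held 857 CPM of Arg1, with 291 UMIs in 16 of 165 cells, and 15 of these cells with 278 UMIs came from mouse 30, the mouse with the highest core Arg1. Of the 16 cells, 15 held at least 1 gene of the macrophage list, against 73 of the 149 outlier cells without Arg1, at medians of 2482.5 and 1106 UMIs per cell. At least 2 genes of the macrophage list were held by 62.5% against 10.7% of these cells, and of the neutrophil list by 12.5% against 25.5%. Erythrocytes held 132 CPM of Arg2, in 21 of 336 cells.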

How the results depend on the processing

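The log2 changes of the members were computed under 115 alternatives, of which 95 left direction and call as given, and no called change reversed. Arg1 in macrophages of metastases against distal tissue lost its call with cells of 1000 or more UMIs (8.05, adjusted p = 0.214, with 2 distal sums left) and was called under DESeq2 (4.66), without TMM (4.94) and without the filter (5.62). The filter removed it with the replicate block, the batch term or a minimum of 5 cells. At a minimum of 20 cells too few distal sums were left for a fit. With the members retained, chosen after seeing the data, it was 4.77 with the replicate block (adjusted p = 0.00133), 5.04 with batch (0.000700) and 4.94 at 5 cells (0.0184).

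In monocytes Arg1, removed in the reported comparison, was called without the filter (4.50, adjusted p = 5.15e-11), and with the members retained at 4.60 (also with minimums of 5 and 20 cells), 5.52 with the replicate block, 4.95 with batch and 4.40 without mouse 30. The members were retained after seeing the counts, so these calls add little to the counts. Nos2 there was called without the filter (3.62, adjusted p = 0.00759), but not with the members retained (3.39; 3.36 with the replicate block).

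Uncalled changes turned sign. Arg1 in Mon_Thbs1 of primary tumors against cores was 1.05 with DESeq2, 1.02 with cells of 1000 or more UMIs and 1.06 without mouse 30. Arg1 in macrophages of core against margin was −0.22 with batch, also with the members retained. Arg2 in Neut_Lcn2 was 0.060 at 20 cells. Arg2 in Neut_Ptgs2 was −0.016 with DESeq2, −0.0078 without TMM, −0.19 without the filter, −0.18 at 20 cells and −0.42 with cells of 1000 or more UMIs. Leaving out each margin sample gave 0.86 to 2.43 for Arg1 in core against margin macrophages. Leaving out each primary tumor gave −3.59 to −1.10 in primary against core macrophages. Leaving out each Pre-MET or Normal lung gave −1.41 to −0.61 for Arg2 in neutrophils. Samples of the larger groups, metastasis and distal tissue among them, were not left out singly. The cause was not tested.

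Shares moved with depth. With cells of 1000 or more UMIs Arg2 was found in 25.0% of Neut_Ptgs2, 24.2% of Neut_Ifit3 and 28.4% of Neut_Lcn2 cells and Nos2 in 4.17% of Neut_Lcn2, and the thinned shares were 12.8%, 5.57% and 3.34% (Arg1 in Mac_Isg20, Mac_Gpnmb and Mon_Thbs1), 14.0%, 12.1% and 12.97% (Arg2) and 1.496% (Nos2), with 6.15% for Slc7a2 in Mac_Cd9. Numbers of genes called in the comparisons ranged, over the alternatives, from 61 to 442 (metastasis and distal macrophages), 0 to 12 (core and margin macrophages), 42 without primary tumor 10 to 283 (primary and core macrophages), and 15 to 98 in Mon_Thbs1. In monocytes they ranged from 14 to 266 (metastasis and distal tissue), 0 to 53 (core and margin), 88 without Pre-MET lung 8 to 250 (Pre-MET and Normal) and 4 without primary tumor 10 to 536 (primary and core), and in neutrophils from 0 to 5, 0 to 8 and 0 to 6, with 0 genes for Pre-MET and Normal without Pre-MET lung 10. The log2 changes of called listed genes held in 119 of 134 alternatives and reversed in none. With the replicate block Sat1 lost its call, Neut_Ptgs2 had 2 genes called, and no other called member or listed gene that could be fitted lost its call. Few UMIs per sum limit Nos2, Slc7a2 and the distal values of Arg1.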

Other observations

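Arg1 was also found in CD4 T cell labels, with 53 UMIs in 20 of 903 T_CD4_S100a4 cells and 43 UMIs in 21 of 3026 T_CD4_Lef1 cells. Of these 20 cells, 7 (35.0%) held at least 2 of 5 genes of a list for type 2 innate lymphoid cells, which are known to express Arg1, against 25 of the 883 other cells of the label (2.83%), at medians of 1672 and 1001 UMIs per cell. In T_CD4_Lef1 the counts were 5 of 21 (23.8%) and 25 of 3005 (0.832%), at medians of 864 and 934 UMIs. At least 2 of 5 T cell genes (Cd3e, Cd3d, Trac, Trbc2 and Il7r) were held by 4 of the 20 against 43.1% of the other T_CD4_S100a4 cells and by 11 of the 21 (52.4%) against 49.2% of the other T_CD4_Lef1 cells. At least 2 of 5 neutrophil genes were held by 4 of the 20 against 13.9% and by 9 of the 21 (42.9%) against 16.3%. The identity of these cells was not tested. In relapse-free lungs, which held no Arg1 in macrophages, 10 of 294 T_CD4_S100a4 cells (3.40%) had an Arg1 UMI.

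The enzymes next to the members were spread differently. Pooled over cells, Slc3a2 was at 583 CPM in Mac_Gpnmb and 572 in Mac_Isg20, against 96.5 CPM in alveolar macrophages. Ass1, which starts the recycling of citrulline to arginine, was at 108 CPM in Mon_MHC-II, 88.6 in Mon_Thbs1 and 66.0 in Mac_Isg20, and at most 1.80 CPM in Neut_Lcn2 and Neut_Ifit3. Gch1, the first enzyme of the tetrahydrobiopterin that nitric oxide synthases need, was at 114 CPM in Mac_Isg20, 85.4 in Mon_Thbs1 and 17.1 in Neut_Lcn2, the label with most Nos2 UMIs. The other arginine transporter Slc7a1 was at most 18.9 CPM in the macrophage and monocyte labels.

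Within Mac_Isg20, cells with Arg1 (98, median 1724 UMIs) held Mrc1 at 419 CPM and cells without (396, median 1274 UMIs) at 160 CPM, and Ifngr1 at 95.03 against 182 CPM. Within Mon_Thbs1 Mrc1 was 235 against 39.8 CPM and Ifngr1 137 against 351 CPM. These cells come unequally from the mice, so the values were not tested. Mrc1 and Ifngr1 are single genes of the companion lists, and the other genes of these lists are not given here.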
